A study of Mus musculus with 3 samples.

Results

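The 43 genes described here make, process and repair the DNA breaks of meiosis, or belong to the DNA repair systems that act beside them. They were taken from a written list of gene symbols and were not filtered by their counts, but the list was made with earlier results of these data known. All 43 were found among the 21757 protein-coding genes of the GENCODE M39 annotation of the mouse genome (build GRCm39). The data are a map of RNA contacts of Tra2β, a splicing activator that binds purine-rich RNA, in the testis of adult wild type mice. The map was made in 3 biological replicates by iCLIP, in which ultraviolet light fixes the protein to RNA and the end of each cDNA marks the nucleotide in contact. Germ cells were released by mincing, the tissue is labelled as a mixture of cell types, and Tra2β was pulled down with a polyclonal antibody. Libraries from input RNA, a control antibody or mice without Tra2β were not analysed here. Each comparison was therefore made inside a library. A high count can come from much RNA, from many cells of a type that holds it, or from strong binding, which cannot be told apart.

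In meiotic prophase the cell cuts its own chromosomes with the Spo11 enzyme. The ends are trimmed, a damage signal spreads from them, recombinase proteins pair the single strands with the homologous chromosome, and a few of the resulting joints mature into crossovers. Many of these proteins, among them Brca1, Brca2, Atm and Atr, also repair DNA in dividing cells, while Spo11, Dmc1, Msh4 and Hfm1 act mainly in the germ line.

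A crosslink is 1 unique cDNA at 1 nucleotide, and CPM are counts scaled to the library total. Exons and introns are those of the canonical transcript of each gene, and crosslinks were counted on the strand of the gene. The libraries held 348033, 619571 and 488719 crosslinks in replicates 1, 2 and 3, of which 703, 874 and 1258 lay on the 43 genes. A count of 0 allows up to 3 counts, which is 8.62, 4.84 and 6.14 CPM in the same order. Markers of spermatocytes, the cells in meiosis, were crosslinked in 5 of 5 cases, with summed levels of 960, 623 and 1479 CPM. Spermatid markers were crosslinked in 6 of 6 cases, with 1779, 316 and 2306 CPM. Markers of Sertoli cells, the somatic nurse cells, summed to 115, 123 and 98.2 CPM with Amh at 0, and of the 4 markers of other tissues Alb, Ins2 and Krt5 were at 0 and Myh6 had 2 crosslinks, both in replicate 2. Replicate 2 stood apart by its low share of exonic crosslinks.

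The densest stretches of contact in these genes are shown first. Within each exon of the 14 genes with at least 20 exonic crosslinks, the 30 nt window with the most crosslinks was found. In 4 exons this window held at least 7 crosslinks with at least 1 in every library, limits set after the data were seen. GAA, the core of the motif that Tra2β binds, is in capitals, and all sequences read 5′ to 3′ along the RNA strand, from GRCm39.
Mdc1 exon 11, chr17:36164913-36164942, plus strand: actcaccccgtcaaaaacgtcccaGAAgac
Top2a exon 2, chr11:98913775-98913804, minus strand: tatgctaatGAAcaaaaaGAAGAAtGAAga
Psmc3ip exon 5, chr11:100983704-100983733, minus strand: atcaaagcagctaccaaccatgtcactcca
Top2a exon 14, chr11:98900870-98900899, minus strand: tctgcgacatcgttttctaGAAGAAtttat
The Mdc1 window held 1, 6 and 5 crosslinks in replicates 1, 2 and 3, and the Top2a exon 2 window held 2, 3 and 7. The Psmc3ip window held 1, 3 and 4, and the Top2a exon 14 window 1, 3 and 3. All 4 windows lie in coding sequence. The Top2a exon 2 window has 4 GAA and is 76.7% purine, whereas the Psmc3ip window has none and is 46.7% purine.

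At least 1 crosslink was found on 42 of the 43 genes, and on 41 in all 3 libraries. Over all 21757 protein-coding genes these counts were 16310 and 11014. Exonic crosslinks were present in all 3 libraries for 33 genes (76.7%), against 35% of all protein-coding genes. The median gene of the list had 22.1 CPM and rank 5416, and the median protein-coding gene 3.94 CPM. Of the 43, 7 were among the top 10% of genes by CPM and 22 among the top 25%. Per length, the median exonic level was 2.35 CPM per kb against 0.411 over all protein-coding genes, and the median intronic level was 0.375 against 0.126. Both exons and introns of the typical recombination gene were thus above the median gene. The medians over all genes include genes with no crosslink.

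The highest gene by CPM was Atr, the kinase that answers to single-stranded DNA. It had 270, 129 and 376 CPM in replicates 1, 2 and 3, a mean of 259 ± 124 (SD, n = 3) and rank 404. Top2a, the topoisomerase that untangles chromosomes in dividing cells, had 198, 82.3 and 403 CPM, with rank 504. Both were lowest in replicate 2 and highest in replicate 3, and without replicate 2 they ranked 325 and 376. Top2a ranked 915 without replicate 3. Rad51b, a strand exchange gene, was steadier with 198, 157 and 151 CPM and rank 782. Mdc1, which carries the damage signal along the chromosome, followed with 126, 140 and 231 CPM. Rad18, a ubiquitin ligase of damage tolerance that also acts in meiosis, had 167, 105 and 166 CPM. Neighbours in this order did not separate by more than their spread, since the ranges of all 5 genes overlapped.

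The next 5 genes were Brca1 (97.0 ± 21.2 CPM), Brca2 (85.0 ± 26.6), the nuclease subunit Mre11a (65.1 ± 21.3), the crossover nuclease subunit Mlh3 (60.1 ± 11.6) and the crossover helicase Hfm1 (58.2 ± 12.0, SD, n = 3 throughout). By exonic CPM per kb the order was different. Top2a led with 39.3 ± 29.6, followed by Psmc3ip, a partner of the recombinase Dmc1, with 27.5 ± 20.6, then Mdc1 with 20.3 ± 6.23 and Atr with 15.1 ± 11.3 (SD, n = 3). Psmc3ip has only 1305 nt of exons, and it ranked 507 by exonic level per length but 3628 by CPM.

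**Figure D1:**
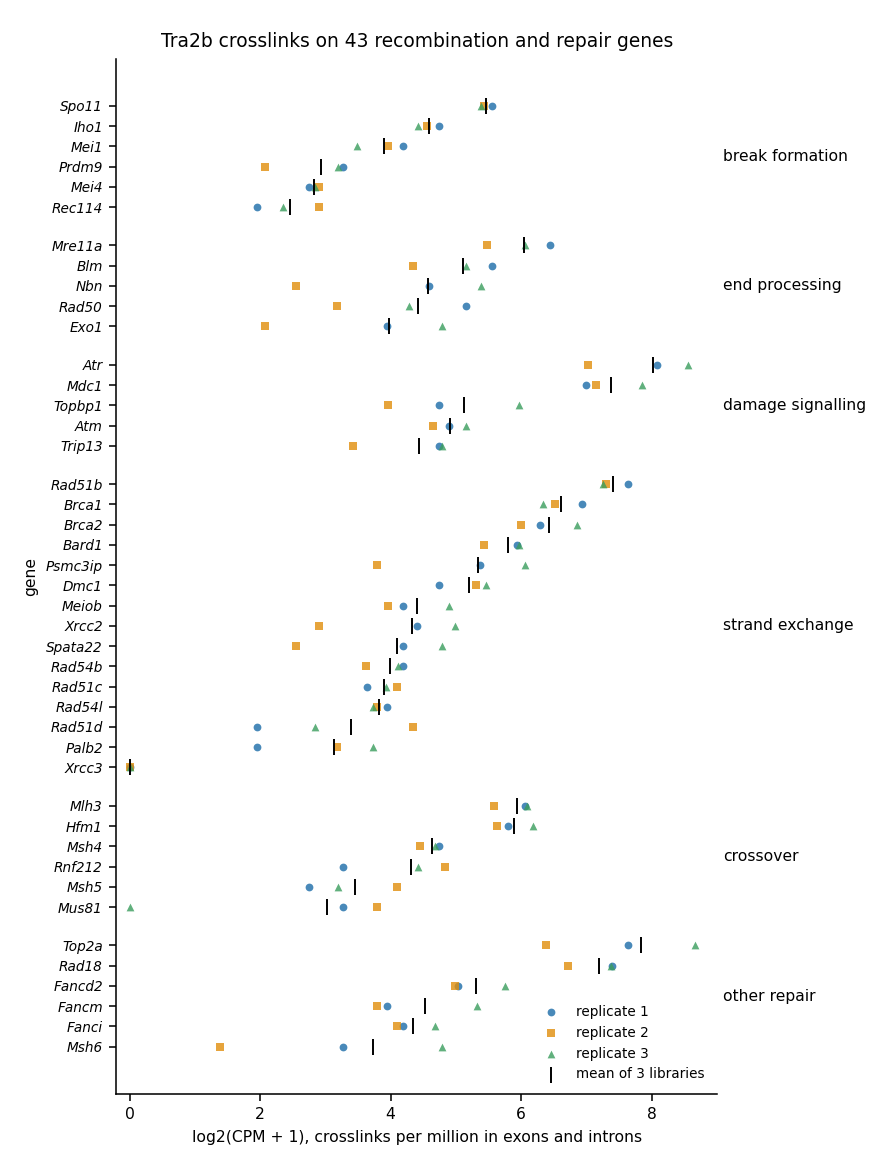
Crosslink level of each of the 43 genes, as log2(CPM + 1) over exons and introns, in each library (coloured points) and as the log2 of the mean CPM + 1 (black bar), grouped by role. Atr and Top2a lie furthest to the right in replicate 3, and Xrcc3 is at 0 in all 3 libraries.

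The roles differed in how much of the signal was exonic. Damage signalling genes had 69.9%, 56.3% and 73.4% of their crosslinks in exons in replicates 1, 2 and 3, most of them from Atr and Mdc1. The 6 genes of break formation had 29.7%, 32.2% and 18.2%, the lowest mean of the 6 roles (26.7% ± 7.48, SD, n = 3). Over all 43 genes the exon share was 49.1% (95% Clopper-Pearson interval 45.3 to 52.8), 41.5% (38.2 to 44.9) and 58.3% (55.5 to 61.0), against 43.1%, 26.9% and 55.6% over all protein-coding genes. The share of the 43 genes was the higher one in all 3 libraries. It rested on few genes, because the 4 with the most exonic crosslinks, Top2a, Mdc1, Atr and Brca2, held 55.9% of them. Without these 4 the share was 35.2%, 30.5% and 39.8%. They were picked for their exonic crosslinks, which by itself lowers the share of the rest, while Rad51b, with 17.1% of the intronic crosslinks, stayed in. No genes were left out of the share of all genes, so these values cannot be set against it.

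To ask in which genes exons were contacted more densely than introns, crosslinks per nucleotide were set against each other in each library with the exact binomial test (two-sided, with length giving the expected share). P-values were adjusted by Benjamini-Hochberg over all 6907 genes tested, and calls needed an adjusted p under 0.05 and 1 direction in every library. Of the 33 listed genes with at least 20 crosslinks, 14 (42.4%) were called above and 0 below, against 36.5% and 0.029% of all genes tested. At an unadjusted p under 0.05 in all 3 libraries the counts were 15 and 0. The share of all genes at that threshold is not given here, so 15 cannot be read as many or few. The exons were denser than the introns in all 3 libraries for 26 of the 33 genes, and for 75.3% of all genes tested. The median log2 ratio was 2.63 against 2.50 over all genes tested, so the list was close to other genes in this respect. With 3 libraries, a sign-flip test over libraries cannot give a two-sided p below 0.25, and none was run.

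In damage signalling, 4 of 5 genes were called above. Atr had 56, 18 and 120 exonic and 38, 62 and 64 intronic crosslinks in replicates 1, 2 and 3, with exons making up 9640 nt and introns 85974 nt. Its exons were higher in every library, but far less so in replicate 2, and the log2 ratio was 3.06 ± 1.44 (SD, n = 3, largest adjusted p by the exact test 0.0032). Mdc1 had 42, 78 and 99 exonic and only 2, 9 and 14 intronic crosslinks, with a log2 ratio of 3.86 ± 0.69. Atm, the kinase that answers to double-strand breaks, had 8, 9 and 15 exonic and 2, 6 and 2 intronic crosslinks, a log2 ratio of 4.45 ± 1.05. Topbp1, an activator of Atr, was called at 3.24 ± 0.63. Trip13, an ATPase that remodels chromosome axis proteins, had 15 exonic crosslinks in all, and its ratio of 2.71 ± 0.77 did not pass (SD, n = 3).

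In end processing, 2 of 5 genes were called. Nbn, the regulatory subunit of the Mre11 nuclease complex, had a log2 ratio of 5.59 ± 1.13 (SD, n = 3), from 5, 3 and 17 exonic and 3, 0 and 3 intronic crosslinks. In replicate 2 its value rests on the 0.5 added to each count. It was the highest of the list, but without replicate 2 it was 5.15 and below Top2a at 5.45. Mre11a had 16, 15 and 19 exonic and 14, 12 and 13 intronic crosslinks, and a ratio of 3.15 ± 0.17. Rad50, the third subunit of this complex, had 9, 0 and 8 exonic crosslinks and did not pass. The helicase Blm had 5, 0 and 5 and did not pass. For the nuclease Exo1, 13 of its 15 intronic crosslinks lay on a 107 nt snRNA gene, Gm23805, inside intron 13, and cannot be assigned to Exo1 RNA.

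In strand exchange, 3 of the 11 genes tested were called. Brca2, which loads recombinase onto single-stranded DNA, had 23, 34 and 48 exonic and 4, 5 and 8 intronic crosslinks, and its log2 ratio of 3.96 ± 0.13 (SD, n = 3) varied least among the genes called. Brca1, the ubiquitin ligase that promotes this repair, had 17, 35 and 14 exonic and 25, 21 and 25 intronic crosslinks, with a ratio of 2.87 ± 0.82. Its exon share was 40.5%, 62.5% and 35.9%, highest in replicate 2, the library where Atr had its lowest share (59.6%, 22.5% and 65.2%). Dmc1, the recombinase of meiosis, was called at 2.63 ± 0.58 from 3, 5 and 4 exonic crosslinks. It did not pass with the exons of all transcripts counted (adjusted p 0.054). Psmc3ip had 12, 6 and 31 exonic and 2, 2 and 1 intronic crosslinks, and with 3.53 ± 1.54 it failed in replicate 2 (adjusted p by the exact test 0.0561). Bard1, the partner of Brca1, had mostly intronic crosslinks, 19, 22 and 23 against 2, 4 and 7 in exons. Meiob (2.67 ± 0.33), which binds single-stranded DNA, the motor protein gene Rad54b (2.63 ± 0.78), Spata22 (2.44 ± 1.19) and the strand exchange genes Rad51c (2.30 ± 0.27) and Xrcc2 (0.74 ± 1.68) did not pass either (SD, n = 3).

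In the crossover group, 3 of 4 genes tested were called. Hfm1 had 11, 6 and 19 exonic and 8, 24 and 16 intronic crosslinks and a log2 ratio of 3.65 ± 1.30. Msh4, which stabilises recombination joints, had 4, 5 and 5 exonic and 5, 8 and 7 intronic crosslinks and a ratio of 3.32 ± 0.17. Mlh3 had 13, 12 and 18 exonic and 10, 17 and 15 intronic crosslinks and the lowest ratio among the genes called, 2.55 ± 0.46 (SD, n = 3 throughout). With all transcripts counted, Mlh3 did not pass (adjusted p 0.0557). Among the other repair genes, Top2a had 59, 45 and 184 exonic and 10, 6 and 13 intronic crosslinks and a ratio of 5.34 ± 0.66. The Fanconi anaemia protein gene Fancd2 passed narrowly (2.74 ± 0.81, largest adjusted p by the exact test 0.0427) and did not pass when all transcripts were counted (0.174) or when genes with as few as 10 crosslinks were tested too (0.0522). The other Fanconi anaemia genes Fancm (2.41 ± 0.59) and Fanci (2.52 ± 0.94) did not pass (SD, n = 3).

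Of the 3 break formation genes with enough crosslinks to be tested, Spo11, Iho1 and Mei1, 0 passed. Spo11 had 6, 10 and 3 exonic and 10, 16 and 17 intronic crosslinks, a log2 ratio of 1.57 ± 0.95. Its first intron, of 1954 nt, held 18 crosslinks (3, 10 and 5), 41.9% of its intronic crosslinks in 16.3% of the intronic sequence. Exon 2 of Spo11, which an annotated protein-coding transcript skips, had 0 crosslinks in 114 nt, which allows up to 3. Iho1, an axis protein needed for breaks, had 3, 5 and 4 exonic and 6, 9 and 6 intronic crosslinks and a ratio of 2.13 ± 0.19. Mei1 had 1, 2 and 0 exonic and 5, 7 and 5 intronic crosslinks and a ratio of 1.43 ± 1.01 (SD, n = 3).

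**Figure D2:**
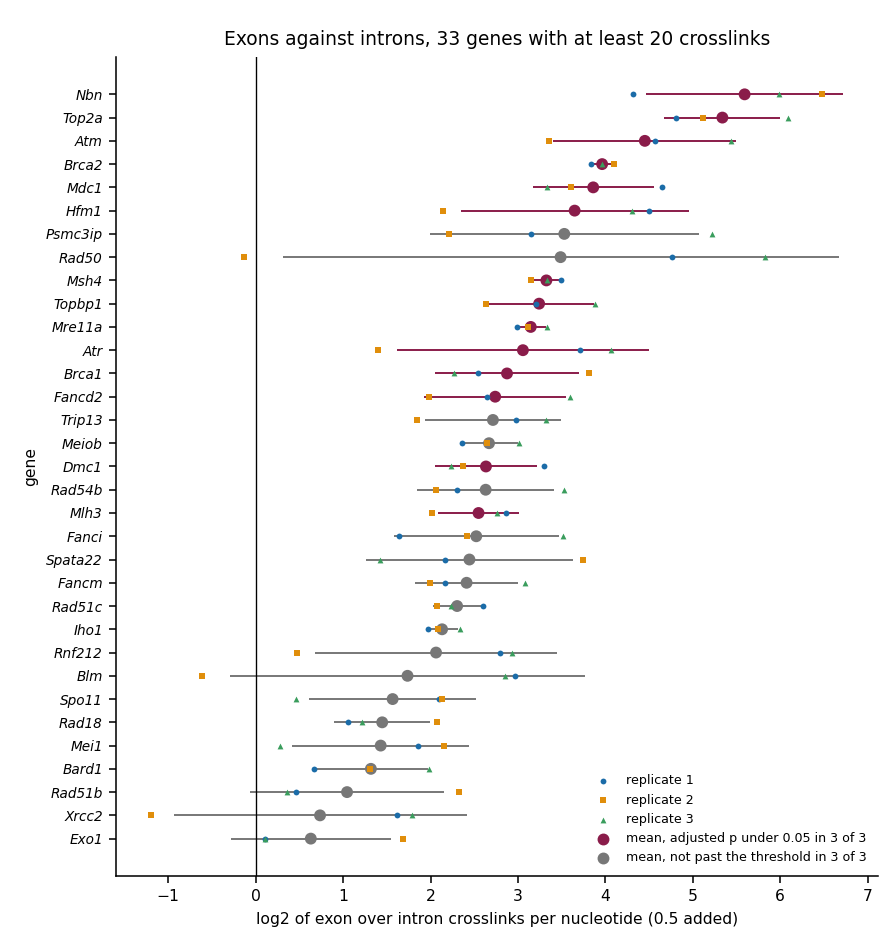
Log2 ratio of exonic over intronic crosslinks per nucleotide, with 0.5 added to each count, for the 33 genes with at least 20 crosslinks (large points and bars, mean ± SD of 3 libraries; small points, single libraries). The 14 genes called above are in dark red, from Mlh3 at 2.55 to Nbn at 5.59, and 6 of the 33 genes had no exonic crosslink in at least 1 library.

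Most crosslinks of Rad51b and Rad18 lay in introns, but the 2 genes differed per length. The intronic level of Rad51b was 0.325 CPM per kb. This was below the list median of 0.375 but above the median of 0.126 over protein-coding genes with introns. Its high count thus came with very long introns as well as an intronic level above the median gene. The intronic level of Rad18 was 1.59 CPM per kb. Rad51b had 0, 2 and 0 exonic crosslinks against 69, 95 and 74 intronic ones. Exons are 2702 nt of the gene and introns 515551 nt, and the ratio did not pass in either direction. Intron 7 alone, of 330419 nt, held 176 crosslinks, 73.9% of the intronic ones in 64.1% of the intronic sequence. Rad18 had 9, 18 and 14 exonic and 49, 47 and 67 intronic crosslinks and a log2 ratio of 1.45 ± 0.55, with the largest adjusted p by the exact test at 0.0966. Introns 9 and 11 of Rad18 held 53 (23, 12 and 18) and 52 (14, 21 and 17) crosslinks in 15440 and 16063 nt.

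Within exons, coding sequence was contacted most. The 43 genes had 6.82 ± 3.01 CPM per kb in coding sequence, 1.89 ± 0.18 in 5′ UTRs and 1.85 ± 1.13 in 3′ UTRs (SD, n = 3). The log2 ratio of coding sequence over 3′ UTR was 1.44, 2.88 and 1.92 in replicates 1, 2 and 3, and 1.90, 2.47 and 2.07 over all genes. Coding sequence was the denser in all 3 libraries, in both sets.

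Single exons were compared with the other exons of the same gene by the same test, over 58715 exons in the 3574 genes that had 20 or more exonic crosslinks. Of 393 exons in 14 listed genes, 0 were called above and 0 below, where 0.215% and 0.346% of all exons tested were. At an unadjusted p under 0.05 in all 3 libraries, 2 exons were above (Rad18 exon 6 and Top2a exon 2) and 1 below (Rad18 exon 13), and 0.87% and 0.938% of all exons. In single libraries 9 exons of the list passed the adjusted threshold. The share of all exons that passed in this way is not given here, so 9 cannot be read as many or few. A test on the sum of the 3 libraries, added after the data were seen, called 10 exons above and 6 below when all 3 libraries also had that direction, against 4.23% and 3.17% of all exons. It takes in counting error only and not the spread between libraries.

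The exons that stood out on the summed counts were of different kinds. Mdc1 exon 11, of 92 nt, had 1, 14 and 6 crosslinks beside 41, 64 and 93 in the other 7267 nt of exons, and a log2 ratio of 2.71 ± 1.34 (SD, n = 3). It was high in replicates 2 and 3 and had a single crosslink in replicate 1. It was the only listed exon called above when replicate 1 was left out (3.30, largest adjusted p by the exact test 0.0385). Top2a exon 2, of 153 nt, had 5, 4 and 14 crosslinks beside 54, 41 and 170, and its ratio of 1.70 ± 0.18 was nearly the same in each library. Rad18 exon 6, of 100 nt, had 2, 2 and 2 beside 7, 16 and 12, a ratio of 3.87 ± 0.58. Atm exon 40 was also called on the sum with only 1, 1 and 1. For such small counts the 0.5 added to each count raises the ratio of a short exon.

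Against the introns next to them, rather than the other exons, 5 of the 393 exons were called above in all 3 libraries (3.01% of all exons). They were Mdc1 exon 10 (10, 12 and 24 crosslinks), Rad18 exon 6, and exons 2, 5 and 28 of Top2a.

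Long exons were looked at apart, because Brca1, Brca2 and Mlh3 each carry much of their protein in 1 large exon. The list has 33 exons of at least 1000 nt, of which 15 lie in genes with enough crosslinks to be tested. None of the 15 was called above or below in all 3 libraries, and 0.575% and 5.94% of the 3130 long exons of all genes were. Brca1 exon 10, chr11:101414151-101417465, is coding and 3315 nt long. It had 12, 26 and 11 crosslinks beside 5, 9 and 3 in the other exons, which together are about as long at 3345 nt. The exon was denser in all 3 libraries, with log2 ratios of 1.20, 1.49 and 1.73 and a mean of 1.47 ± 0.27 (SD, n = 3), but the largest adjusted p by the exact test was 0.858. On the sum of the libraries the ratio was 1.51 (adjusted p by the exact test 0.00138). This exon is absent from an annotated protein-coding transcript of Brca1.

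Brca2 exon 11, chr5:150462114-150466922, is coding and 4809 nt long. It had 12, 24 and 20 crosslinks beside 11, 10 and 28 in 8610 nt of other exons. The ratio was again above 0 in all 3 libraries but uneven, at 0.96, 2.06 and 0.36 (mean 1.13 ± 0.86, SD, n = 3, and 0.66 without replicate 2), and only replicate 2 passed on its own (adjusted p by the exact test 0.00325). On the sum it was 1.03 (adjusted p by the exact test 0.0055). The 8610 nt of other exons include the last exon, exon 27, with 12 crosslinks in 3677 nt, which lowers their density and raises this ratio. Brca2 exon 10 had 4, 4 and 8 crosslinks and a ratio of 1.10 ± 0.34. Mlh3 exon 2, of 3323 nt, had 12, 11 and 14 crosslinks beside 1, 1 and 4, so that 86.0% of the exonic crosslinks of Mlh3 lay in 61.4% of its exonic sequence. Its ratio was 1.89 ± 0.76, and 1.86 on the sum (adjusted p by the exact test 0.0114). The other exons of Brca1 and Mlh3 also include a sparse last exon. Brca1 exon 23 had 1 crosslink in 1162 nt and Mlh3 exon 12 had 2 in 1201 nt. Ratios of the long exons to internal exons alone are not given here.

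Neither of the long Brca exons had a dense site. The fullest 30 nt window of each held 4 crosslinks, and these are printed to show what such a window holds, with GAA in capitals.
Brca1 exon 10, chr11:101417328-101417357, minus strand: agagtatttctatttcaaatgtgtgtgtgg
Brca2 exon 11, chr5:150462460-150462489, plus strand: tgaccacaacgGAAcaagtactcttaaatt
The Brca1 window had 2, 0 and 2 crosslinks and the Brca2 window 2, 1 and 1. Over the first, middle and last parts of equal length, Brca1 exon 10 had 18, 17 and 14 crosslinks, Mlh3 exon 2 had 10, 17 and 10, and Brca2 exon 11 had 27, 19 and 10. GAA was more frequent in these exons than in the other exons of the same gene, with 3.20 against 2.75 per 100 nt in Brca1, 3.70 against 2.40 in Brca2 and 3.22 against 1.49 in Mlh3. The other exons include the last exon, which had 1.72, 1.79 and 1.00 per 100 nt in the same order of genes.

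**Figure D3:**
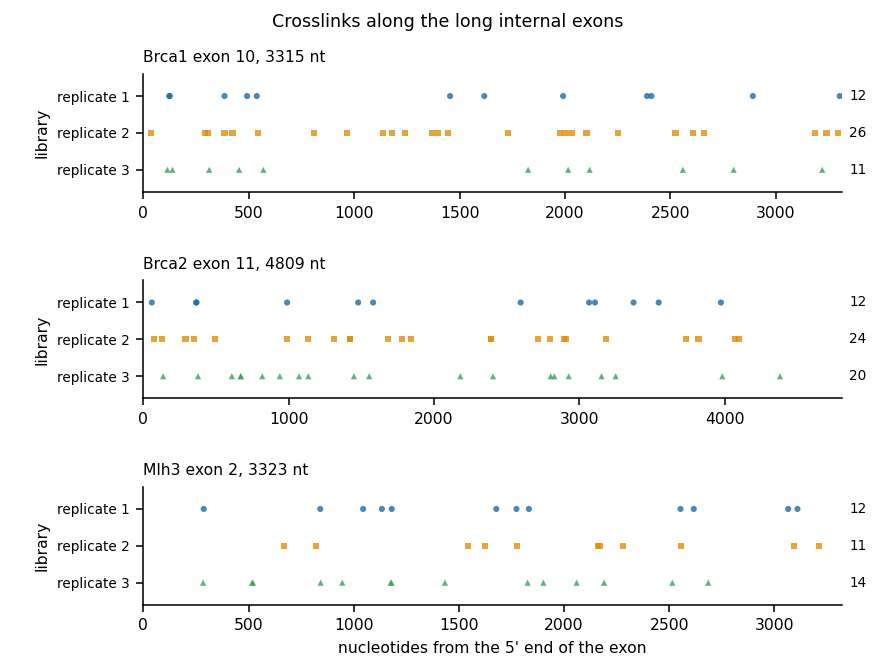
Positions of the crosslinks along Brca1 exon 10, Brca2 exon 11 and Mlh3 exon 2, in nucleotides from the 5′ end of the exon, by library, with the number of crosslinks of each library at the right. Crosslinks lie along the whole length of Brca1 exon 10 and Mlh3 exon 2, and Brca2 exon 11 has 10 of its 56 in the last part of equal length.

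Long internal and long last exons differed. The last exons hold 3′ UTR and the internal ones tested hold none, so position and 3′ UTR content cannot be told apart here. Of the 6 long internal exons tested, 4 were denser than the rest of the gene in all 3 libraries and none was sparser in all 3. Of the 9 long last exons tested, none was denser and 7 were sparser in all 3. Over all genes, 39.9% of 494 long internal exons were denser in all 3 libraries and 63.2% of 2399 long last exons were sparser in all 3, so the list followed the same order. Rad18 exon 13, of 5263 nt and mostly 3′ UTR, had 3, 1 and 7 crosslinks beside 6, 17 and 7 in 1603 nt, a log2 ratio of -3.19 ± 1.84. Atr exon 47, of 1760 nt, had 0, 0 and 7 beside 56, 18 and 113, a ratio of -3.15 ± 1.45 (SD, n = 3), and was called below only when replicate 2 was left out (largest adjusted p by the exact test 0.00502). Mre11a exon 20, Brca1 exon 23, Brca2 exon 27 and Mlh3 exon 12 were the other exons called below on the sum of the libraries. In Mdc1, the internal exons 5 and 10 had ratios of 0.03 ± 0.11 and 0.11 ± 0.45. Its last exon, exon 16, had 0.95, -1.65 and -0.33 in replicates 1, 2 and 3, and was below on its own in replicate 2 (adjusted p by the exact test 0.00949). Fancd2 exon 44, also a last exon, had -0.33 ± 0.79 and no single direction, and Atm exon 64 had -0.83 ± 0.09 (SD, n = 3).

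**Figure D4:**
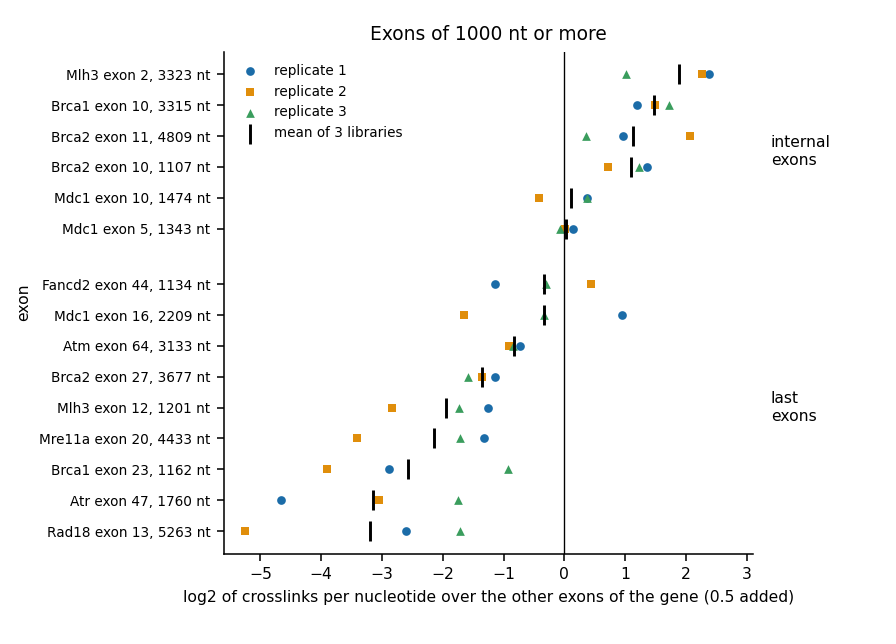
Log2 ratio of crosslinks per nucleotide in each of the 15 tested exons of at least 1000 nt over the other exons of its gene, with 0.5 added to each count, by library (coloured points) and as the mean (black bar). The 6 internal exons have means from 0.03 to 1.89 and the 9 last exons from -3.19 to -0.33.

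The other 18 long exons lie in genes with few exonic crosslinks. Exon 4 of the mismatch repair gene Msh6 (2536 nt) had 7 crosslinks in all, exon 14 of Fancm (1864 nt) 6, and exon 4 of Palb2 (1395 nt), whose protein joins Brca1 to Brca2, had 3. The first exon of Prdm9 (1132 nt), the methyltransferase that places meiotic breaks, had 2, and its last exon (2288 nt) had 0. The last exons of Iho1 (2363 nt) and Xrcc2 (3017 nt) had 9 and 8, those of Rad54l (6008 nt) and Trip13 (1993 nt) 6 each, and that of Bard1 (3355 nt) 5. The last exons of Rad51d (5860 nt) and Rad51c (2843 nt) had 3 each, and those of Exo1 (5060 nt), Fancm (1784 nt) and Rad50 (1226 nt) had 2 each. The last exons of Mei4 (1508 nt), Xrcc3 (1481 nt) and Dmc1 (1088 nt) had none, which allows up to 3.

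Alternative exons were of interest because Tra2β acts on exons that can be included or skipped. The annotation gives 87 exons in 35 of the genes that overlap no exon of the canonical transcript, 75 of them inside a canonical intron and 12 outside. Of these, 22 had a crosslink, 40 crosslinks in all in 28704 nt. In the 10 genes with enough crosslinks, 24 were tested against the canonical exons, and 0 were called above and 0 below, against 0.0486% and 0.793% of all alternative exons. At an unadjusted p under 0.05 in all 3 libraries the counts were also 0 and 0, against 0.138% and 2.74% of all alternative exons. Apart from an exon in Rad18 intron 12 with 10, each of the 24 had at most 3 crosslinks, which left little room for a call in every library. The counts of 0 thus do not show whether Tra2β contacts these exons differently. The sum of the libraries called 0 above (0.461% of all) and 1 below (14.6% of all), a Top2a exon of 115 nt with 0 crosslinks.

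The alternative exon with the most crosslinks was one of 1540 nt in Rad18 intron 12, with 0, 5 and 5. One of 1499 nt in Msh4 intron 17 had 1, 1 and 2. An alternative exon of 102 nt in intron 1 of Hfm1 had 1, 1 and 1, all within 30 nt, and the other 3236 nt of that intron had none. The window is printed because it was the only short alternative exon with a crosslink in each library, with GAA in capitals.
Hfm1 intron 1 exon, chr5:107072736-107072765, minus strand: GAAGAAacaaacatcccttttttgctttct
Against the rest of the intron in place of the canonical exons, 0 of the 24 alternative exons were called above (0.0917% of all) and 0 below (0% of all). The same limit of few crosslinks holds here. Alternative exons with 2 crosslinks lay in Mdc1 intron 1, Mre11a intron 1, Rad18 intron 9 and Rad54b intron 3. The one in Rad54b lies under another gene, Fsbp, for 3915 of its 3920 nt. The exon in Rad18 intron 9, of 78 nt, had 1, 0 and 1, and Rad18 exon 10, a coding exon of 243 nt that some transcripts skip, had 0, 2 and 0.

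Canonical exons that another transcript skips were also counted, a comparison added after the data were seen. In 38 genes, 145 of the 732 internal exons were skipped by at least 1 annotated transcript, 88 of them by a protein-coding one. They had 6.05, 4.53 and 5.91 CPM per kb in replicates 1, 2 and 3, against 6.75, 4.23 and 11.7 for internal exons that are never skipped. The skipped exons were lower in replicates 1 and 3 and slightly higher in replicate 2, so no direction held in every library. Brca1 exon 10 had the most crosslinks among them (49), with 12, 26 and 11 in 3315 of their 24224 nt. Its count was highest in replicate 2, and densities without it are not given, so the sign there may rest on this exon. The exons were pooled over genes, so genes with many crosslinks weigh most. Next among the skipped exons was Top2a exon 5 with 4, 3 and 10. Exon 4 of Bard1 had 0, 3 and 4, and Rad18 exon 8, of 77 nt, 1, 6 and 0. The last of these passed on its own in replicate 2 alone (adjusted p by the exact test 7.63e-06).

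Exonic crosslinks of the 43 genes lay near GAA. Within 10 nt of a GAA were 57.7%, 58.7% and 55.1% of them, in 45.0% of the exonic sequence. The density near GAA over that elsewhere was 1.64 ± 0.12 (SD, n = 3), and 1.92 ± 0.29 over all genes, and it was above 1 in all 3 libraries. When the expected share was taken within the same exons, the ratio fell to 1.09 ± 0.04, and 1.10 ± 0.07 over all genes. By gene, Top2a had 67.7% of 288 exonic crosslinks near GAA where its exons gave 58.2% by sequence, and Atr 56.2% of 194 against 50.3%. Mdc1 was close to its sequence, with 49.8% of 219 against 48.3%, and Mlh3 below it, with 41.9% of 43 against 51.0%.

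The libraries hit mostly different nucleotides. Of 1384 exonic positions with a crosslink in these genes, 20 were shared by at least 2 libraries and 0 by all 3.

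For a few genes the data set a limit rather than a level. Xrcc3, a strand exchange gene, had no crosslink in any library, which allows up to 8.62, 4.84 and 6.14 CPM in replicates 1, 2 and 3, or 2.06 CPM over the 3 libraries together. Mei4 and Rec114, partners of Spo11 in break formation, had 9 and 7 crosslinks and none in exons, which allows up to 3.23, 1.81 and 2.30 exonic CPM per kb for Mei4 in replicates 1, 2 and 3, and 9.35, 5.25 and 6.66 for Rec114. Over the libraries together the limits are 0.77 and 2.23. Rnf212, which marks future crossover sites, had 30 crosslinks, 1 of them exonic. The nuclease gene Mus81 had 3 and 8 crosslinks in replicates 1 and 2 and 0 in replicate 3, and Mei1 had 1, 2 and 0 in exons. Palb2, Prdm9, Rad51d, Msh5, Msh6 and Rad54l had 9 to 19 crosslinks in all and were not tested. Spata22, a single-strand binding partner of Meiob, had 7 exonic crosslinks, but 3 of them lay where another protein-coding gene, Gm49340, shares its sequence.

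A wider set of 52 pathway genes, of which 51 were found, was counted in the same way. Of the 26 with at least 20 crosslinks, 8 (30.8%) had exons called above introns and 0 below, against 36.5% and 0.029% of all genes tested. Among the 8, chosen here after their values were seen, were Usp1, which removes ubiquitin from Fancd2 (65, 12 and 178 exonic against 1, 4 and 3 intronic crosslinks), the ubiquitin ligase gene Rnf168 (44, 76 and 43 against 15, 12 and 11), the nuclease scaffold gene Slx4 (44, 40 and 76 against 21, 15 and 25), the germ cell gene Tex15 (43, 54 and 83 against 2, 8 and 5), and Ankrd31, a partner of Rec114 (17, 22 and 70 against 54, 95 and 83).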

How the data were processed

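Each library was processed by the authors with the iMAPS pipeline, and the submitters' processing notes name Trim Galore 0.6.7, Bowtie 1.3.1, STAR 2.7.9a, UMI-tools 1.1.2 and build mm39, which is GRCm39. How multimapping reads were handled is not given in the sources used here. Values as deposited are whole-number counts of unique cDNAs at each crosslinked nucleotide and strand, not normalised and not pooled. Positions with no cDNA are not listed. Intervals, limits and the tests inside each library cover counting error only, and not uneven contact along an RNA.

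Here, counts were summed by strand over exons and introns of the Ensembl canonical transcript of each protein-coding gene in GENCODE M39, with Python 3.11.15, numpy 2.4.6, scipy 1.17.1 and pysam 0.24.0. CPM used the library total. Log2 ratios had 0.5 added to each count. Exact binomial tests were two-sided, needed at least 20 crosslinks, were adjusted by Benjamini-Hochberg within each library over the whole table, and called features under 0.05 in all 3 libraries. The test of single exons was run on simulated counts for genes richer in exonic crosslinks than most of the list. Genes with fewer crosslinks, added spread between libraries, and the intron and alternative exon comparisons were not simulated. There was 1 group, so no test between groups was made. Alternatives were other minimum counts, references, transcripts and pseudocounts, distinct positions, masking of other genes, and each library left out.

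The members and lists were chosen with earlier results of these data known. Values are given for all members by count, and in full for the 10 with the highest CPM, members with no crosslink in a library or none in exons, members called by exon, exons of at least 1000 nt, called exons, exon 10 and the intron 9 exon of Rad18, and the alternative exons with most crosslinks. Usp1, Rnf168, Slx4, Tex15, Ankrd31, Spo11 intron 1 and exon 2, and the skipped exons were chosen after their values were seen.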

Additional observations from a re-analysis of the deposited data

Results flagged for a closer look

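Rad51b had 27 crosslinks on the opposite strand, 5, 14 and 8 in replicates 1, 2 and 3, over 516517 nt with no gene annotated on that strand. It was marked because it was the only one of the 43 genes with more antisense crosslinks than a count of 0 allows (3) in every library. The sense strand had 69, 97 and 74. The mark does not take length into account. Per length, Rec114 (22 in 86009 nt), Msh4 (18 in 48865 nt) and Rad54l (15 in 26590 nt) had more antisense crosslinks than Rad51b. In Rec114 and Mei4 they outnumbered the sense crosslinks, with 22 against 7 and 11 against 9. How many genes outside the list meet the same mark is not given here. Antisense crosslinks over all 43 genes were 43, 144 and 41, and were most frequent in replicate 2. The part of background in these crosslinks was not tested.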

How the results depend on the processing

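The median rank of the 43 genes lay between 5371 and 5580 under other counting rules and between 5012 and 5932 when each library was left out in turn, against 5416. Their exon share of 49.6% lay between 49.2% and 55.2%, and between 45.3% and 53.7% in the same order. The count of genes with exons above introns lay between 11 and 14 under other rules and between 15 and 18 with a library left out, against 14 of 33. The number of genes tested changed with the rule, so the share called moved more than the count. It was 11 of 15 genes with at least 50 crosslinks and 13 of 39 with at least 10. Shares over all genes under these rules are not given here. The count of exons above the rest of their gene was 0 to 1 with a library left out (Mdc1 exon 11, without replicate 1) and that below was 0 to 1 (Atr exon 47, without replicate 2), against 0 each. Adjacent introns as the reference gave 5 above. The sum of the 3 libraries gave 10 above and 6 below, and 1 alternative exon below, against 0 each. On that sum the log2 ratios of Brca1 exon 10 and Brca2 exon 11 were 1.51 and 1.03 and passed. The ratios of these exons kept their sign under every alternative run. The GAA density ratio of 1.64 was 1.45 within 5 nt, 1.78 within 20 nt, 2.46 for GAAGA and 1.09 within the same exons. The limit for Xrcc3 of 8.62 CPM in replicate 1 was 2.06 CPM over the libraries together. The sum and the comparison within the same exons were added after the data were seen. The causes of these changes were not tested, apart from the number of libraries or counts that enter. Depth limits what can be said of single exons, of which 384 of 818 in the list had any crosslink. No paired analysis was possible because the labels gave 1 group.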
